A study of Mus musculus with 24 samples.

Results

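The clustered protocadherins were examined in hippocampal RNA-seq of CBP-ifKO mice and their control littermates. The members were all rows of the count table whose symbol is Pcdha, Pcdhac, Pcdhb, Pcdhga, Pcdhgb or Pcdhgc followed by a number. This rule gave 58 rows with 57 distinct symbols, of 55471 genes in the table. They comprised 12 alpha variable, 2 alpha C-type, 22 beta, 12 gamma A, 7 gamma B and 3 gamma C-type genes, all on the plus strand of mouse chromosome 18 between 36930184 and 37841873 (GRCm38). The symbol Pcdha11 stands on 2 rows with different identifiers, which are called the first and the second model here. RNA came from 12 female C57BL/6 mice aged 3 to 6 months, with 3 mice in each of 4 groups. Control and CBP-ifKO mice were kept in a Standard Cage (SC) or in Environmental Enrichment (EE). The CBP-ifKOs carried floxed Crebbp and the Camk2a-creERT2 transgene, whereas the control littermates lacked the recombinase, and the mice of both genotypes had received tamoxifen in 5 doses. The Camk2a promoter directs recombination to excitatory forebrain neurons, while the RNA came from whole hippocampus, in which other cells keep an intact Crebbp. The deletion leaves a truncated CBP without its acetyltransferase activity, so that Crebbp RNA itself is not expected to vanish. A lower level in such bulk RNA can come from fewer cells of a type or from less RNA per cell, and these cannot be told apart.

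Clustered protocadherins are cell-surface adhesion proteins of the cadherin superfamily that bind copies of themselves on neighboring membranes. Each alpha and gamma gene has its own promoter and a long variable exon that encodes the extracellular domain, and its transcript is spliced to constant exons shared by its cluster. The beta genes have a single exon and no constant part. Individual neurons express different combinations of the variable genes, chosen by promoter methylation and by CTCF- and cohesin-mediated contact with distant enhancers, and the combinations let sister dendrites recognize and avoid each other. The C-type genes at the end of the alpha and gamma clusters are expressed more uniformly among neurons. CBP, encoded by Crebbp, is a lysine acetyltransferase and transcriptional coactivator that is abundant at enhancers.

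The library totals were between 26874015 and 37448388 counts, and the clustered protocadherins took between 0.0425% and 0.0527% of them. All counts of the CBP-ifKO libraries were even, against 54.0% to 55.1% odd values among the nonzero counts of the control libraries, and the tests were therefore repeated with these counts divided in 2. The reason for the even counts was not tested. Divided in 2, the CBP-ifKO totals were between 14291105 and 18724194, and the calls numbered 3 in SC, 3 in EE and 5 averaged, as with the deposited counts. With divided counts and all libraries thinned to a common depth, Pcdha5 and Pcdhgc5 lost their calls in SC at log2 fold changes of 0.73 and -0.34 (adjusted p = 0.0502 and 0.0526, edgeR). Pcdhb7 and Pcdhb9 lost theirs in EE at 0.44 and 0.40 (adjusted p = 0.0786 and 0.0823), and Pcdhb9 gained one in SC at 0.42 (adjusted p = 0.0307). The log2 fold changes with the deposited counts, given below, were 0.70, -0.34, 0.47, 0.39 and 0.31 in the same order. Values below are CPM, counts scaled to a common library total after TMM normalization. Crebbp, the targeted gene, had 75.5 ± 5.78 CPM in SC controls, 50.7 ± 0.796 in SC CBP-ifKOs, 73.0 ± 3.80 in EE controls and 46.5 ± 1.89 in EE CBP-ifKOs (SD, n = 3 each). The excitatory neuron markers Slc17a7 and Camk2a were abundant in all libraries. Of 7 such markers, 3 were lower in CBP-ifKOs averaged over housing and 2 in each housing, against 10.3% of all genes lower averaged, 4.02% in SC and 3.53% in EE, with averaged log2 fold changes from -0.52 to 0.16 over the list. Their summed level was between 6702 and 7468 CPM in controls and between 6091 and 6962 CPM in CBP-ifKOs. Control mouse 2 stood apart in both housings, with a summed level of 7 astrocyte markers of 4741 CPM in SC and 4482 CPM in EE, against 3726 to 4179 CPM in the other 10 mice. EE control mouse 1 held 1276 CPM of 7 choroid plexus markers, of which 1129 CPM was Ttr, against 38.4 to 67.0 CPM elsewhere. The summed level of 5 markers of oligodendrocyte precursors was between 156 and 172 CPM in controls and between 121 and 141 CPM in CBP-ifKOs, so that the genotypes did not overlap. The summed level of 5 immature granule neuron markers was between 77.7 and 100.6 CPM in controls and between 63.3 and 77.2 CPM in CBP-ifKOs, also without overlap. The summed level of 7 endothelial and mural markers was between 379 and 398 CPM in SC controls and between 320 and 340.0 CPM in SC CBP-ifKOs, and overlapped in EE. Interneuron markers, 7 in all, summed to between 871 and 966 CPM in controls and between 814 and 875 CPM in CBP-ifKOs, without overlap within either housing. The sums of 7 microglia markers were also lower without overlap within both housings, with 279 to 310.4 CPM in controls and 262 to 292 CPM in CBP-ifKOs. Astrocyte markers did not overlap in EE, with 4048 to 4482 CPM in controls and 3726 to 3811 CPM in CBP-ifKOs, and choroid plexus markers did not in SC, with 52.2 to 57.9 and 39.04 to 42.9 CPM. Of these lists, the members called lower averaged over housing were 5 of 5 for oligodendrocyte precursors, 2 of 5 for immature granule neurons, 2 of 7 each for microglia and astrocytes and 1 of 7 each for interneurons, endothelial and mural cells and choroid plexus, and 1 interneuron marker was called higher, against 10.3% of all genes lower and 6.64% higher. Sums of 7 oligodendrocyte markers overlapped in both housings. The part of these cell populations in the differences below was not tested.

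What the counts of these genes measure was set by the layout of the clusters. The alpha genes share 2860 or more exonic bases with each other, and the gamma genes share 2116 or more. Pcdhga10, all of whose 4732 exonic bases lie in other annotated genes on either strand, had 0 counts in all 12 libraries. Pcdha4, with 404 bases outside other genes, had between 0 and 6 counts. A further 4 gene models that run from an alpha gene across the clusters or lie in the gamma constant exons, Gm42416, Gm37013, Gm37388 and Gm38182, also had 0 counts in all libraries. Genes without bases of their own thus had no counts, and the values of the alpha and gamma genes are read here as those of their variable exons. The counting was not stated to use strand, so that reads from a gene and an overlapping antisense gene cannot be told apart. Levels are compared between genes per countable kb, the number of positions at which a 50-base read would lie outside other genes and match no other transcript. Of the 58 genes, 54 passed the filter on low counts in each fit. The others were Pcdha4, the second model of Pcdha11 with 0 to 3 counts, Pcdhb1 with 0 to 16 counts and Pcdhga10.

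In SC controls, Pcdhgc5, a C-type gene whose protein has been found at GABAergic synapses, had the highest level, with 17.8 ± 2.18 CPM per countable kb. Pcdhgc3, a C-type gene that acts in dendrite growth, followed with 12.9 ± 1.68 CPM per countable kb. Pcdhac2, the C-type gene that serotonergic axons need to spread evenly, had 8.52 ± 1.83, and Pcdhga11 had 8.37 ± 1.5 CPM per countable kb, a difference smaller than the spread between mice. The most abundant beta gene was Pcdhb9 with 6.93 ± 0.678 CPM per countable kb, the most abundant gamma B gene was Pcdhgb6 with 4.34 ± 0.810, and the most abundant alpha variable gene was Pcdha12 with 2.42 ± 0.620. The remaining C-type genes were lower, with 3.22 ± 0.412 CPM per countable kb for Pcdhgc4, the gamma isoform on which neuronal survival depends most, and 1.10 ± 0.211 for Pcdhac1. C-type genes thus include both the highest levels of the clusters and levels within the range of the variable genes.

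**Figure D1:**
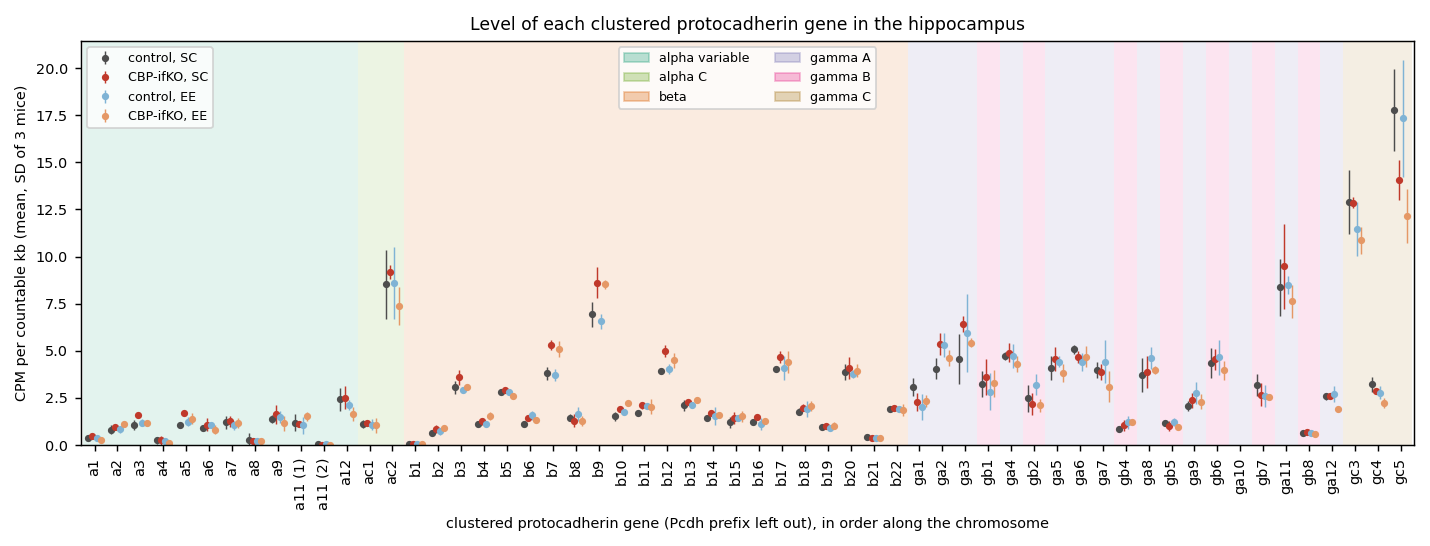
Mean level of each clustered protocadherin gene in CPM per countable kb (vertical axis, bars show the SD of 3 mice) in the 4 groups (colors), with genes in their order along the chromosome and the subclusters shaded. Pcdhgc5 lies highest in each group, at 17.8 CPM per countable kb in SC controls and 12.2 in EE CBP-ifKOs, and the alpha variable genes lie at or below 2.42 in SC controls. Pcdhga10 has no countable bases and no point.

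Within a subcluster, 1 gene held most counts in the C-type subclusters, which have only 2 and 3 genes. In the beta and alpha variable subclusters, which have more genes, no gene held most of them. In every mouse, Pcdhac2 held between 87.7% and 92.3% of the alpha C counts, and Pcdhgc5 held between 64.9% and 72.9% of the gamma C counts. The largest gene of the beta cluster held between 10.95% and 13.6% of its counts, and was Pcdhb9 in 9 mice and Pcdhb17 in 3. The largest alpha variable gene differed between mice. It was Pcdha12 alone in 8 of the 12, and in SC CBP-ifKO mouse 2 Pcdha3, Pcdha9 and Pcdha12 had equal counts. The effective number of genes, the number of equally abundant genes that would give the same evenness, was between 17.1 and 18.2 for the beta genes, 10.4 and 10.8 for gamma A and 2.12 and 2.38 for gamma C. For the 12 alpha variable genes the effective number was between 8.47 and 9.25. Shares and effective numbers depend on how many genes a subcluster has, so that they do not compare promoter types. Shares of counts also depend on the countable length of each gene.

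The first question was whether loss of CBP in excitatory neurons changes the expression of these genes. In SC-housed mice, 3 of 54 genes passed an adjusted p of 0.05 in edgeR's quasi-likelihood F test with Benjamini-Hochberg adjustment, against 5.52% of all genes tested. Pcdhb7 and Pcdha5 were higher in CBP-ifKOs and Pcdhgc5 was lower. In EE-housed mice, 3 of 54 passed, against 4.57% of all genes tested, with Pcdhb7 and Pcdhb9 higher and Pcdhgc5 lower. With the genotype difference averaged over both housings in all 12 mice, 5 of 54 passed, against 16.9% of all genes tested. These were Pcdhb7, Pcdhb9, Pcdhb10 and Pcdha5, which were higher, and Pcdhgc5, which was lower. The shares of members, 5.56% in each housing and 9.26% averaged, are near or under the background of all genes. Among all genes, calls were higher in 1.51% and lower in 4.02% of those tested in SC, higher in 1.03% and lower in 3.53% in EE, and higher in 6.64% and lower in 10.3% averaged.

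At an unadjusted p of 0.05, the members past it were 13 of 54 in SC, 9 of 54 in EE and 11 of 54 averaged, against 20.5%, 19.6% and 29.9% of all genes. In SC 11 of the 13 were higher, where 8.44% of all genes were higher and 12.1% lower. In EE 4 were higher and 5 lower, where 8.39% of all genes were higher and 11.2% lower. Averaged, 7 were higher and 4 lower, where 13.7% of all genes were higher and 16.3% lower. The groups did not overlap for 13 members higher and 1 lower in SC, against 12.1% and 13.8% of all genes, and for 5 higher and 6 lower in EE, against 11.4% and 13.9%. Over all 12 mice 3 members were higher without overlap and 0 lower, against 3.21% and 5.35% of all genes.

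**Figure D2:**
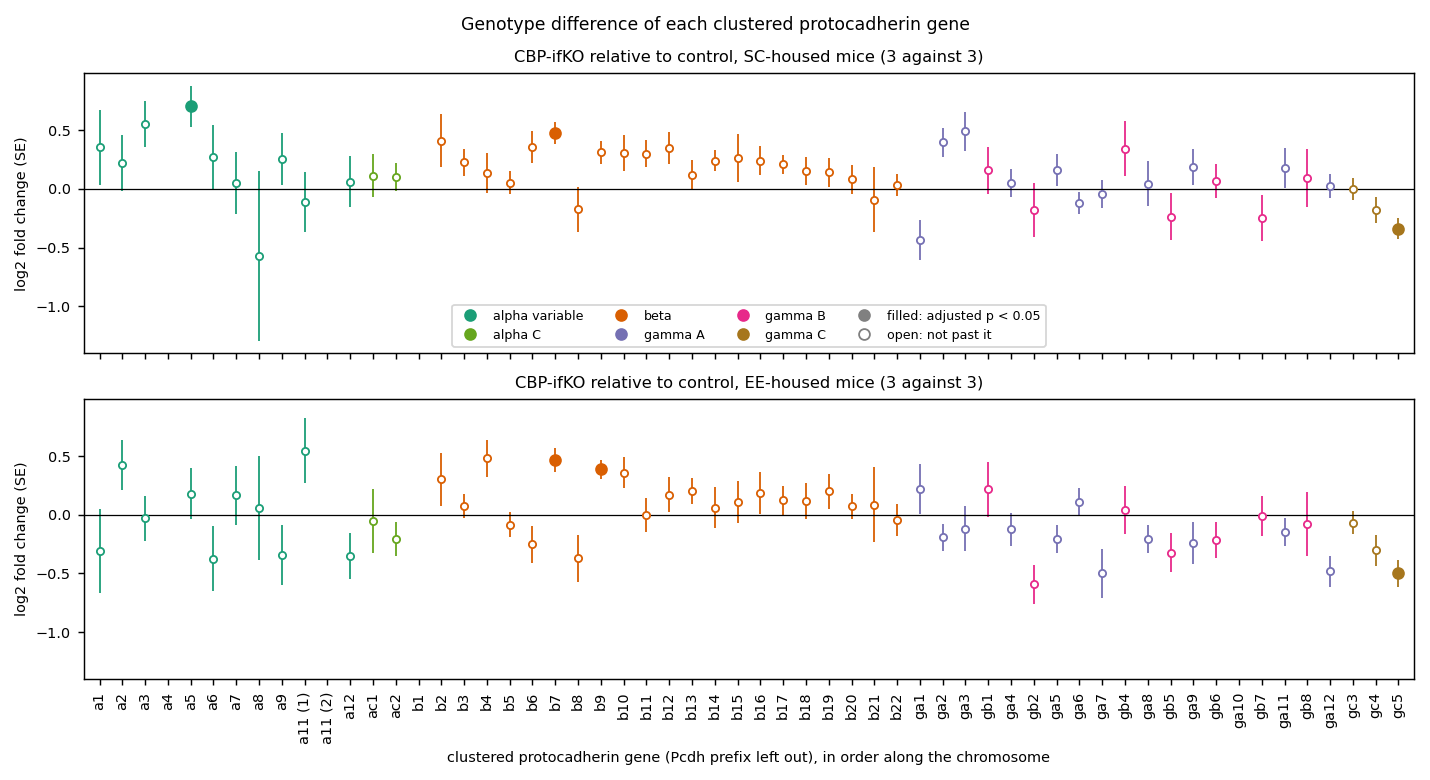
Log2 fold change of CBP-ifKO relative to control (vertical axis, bars show the SE) for the 54 tested genes in their order along the chromosome, in SC (top) and EE (bottom), colored by subcluster, with filled points for an adjusted p below 0.05. In SC, 19 of 21 beta genes lie above 0, and the 3 gamma C genes lie below it in both housings.

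Of the 4 members called higher averaged over housing, 3 were beta genes. In SC, 19 of the 21 tested beta genes had a positive log2 fold change, with a median of 0.23, against 49.7% of all genes and a median of -0.0019. In EE, 16 of 21 were positive with a median of 0.12, against 53.0% of all genes and a median of 0.014. At an unadjusted p of 0.05, 7 beta genes were higher and 0 lower in SC, and 4 were higher and 0 lower in EE, against 8.44% higher and 12.1% lower of all genes in SC and 8.39% and 11.2% in EE. The CBP-ifKO values lay above all control values for 9 beta genes in SC and 5 in EE, against 12.1% and 11.4% of all genes. They lay below all control values for 0 beta genes in SC and 1 in EE, against 13.8% and 13.9% of all genes. The latter was Pcdhb5, with 9.04, 9.73 and 8.96 CPM in EE controls and 8.53, 8.54 and 8.93 CPM in EE CBP-ifKOs and a log2 fold change of -0.084 (SE 0.10, adjusted p = 0.713).

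Pcdhb7 (37341702 to 37345202) had the smallest adjusted p of the clusters in SC and averaged over housing. Its level in the 3 SC controls was 13.2, 11.5 and 11.3 CPM, and in the 3 SC CBP-ifKOs it was 15.7, 17.4 and 17.1 CPM. In EE, controls had 11.6, 12.8 and 10.7 CPM and CBP-ifKOs had 14.7, 16.0 and 17.4 CPM. All 6 CBP-ifKOs therefore exceeded all 6 controls. The log2 fold change was 0.48 (SE 0.094, adjusted p = 0.0126, edgeR) in SC, 0.47 (SE 0.10, adjusted p = 0.0276) in EE and 0.47 (SE 0.069, adjusted p = 2.5e-04) averaged over housing. Without EE control mouse 1, the mouse rich in choroid plexus markers, the value in EE was 0.46 with an adjusted p of 0.0694.

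Pcdhb9 (37400855 to 37403909), the most abundant beta gene, was also higher in all 6 CBP-ifKOs than in all 6 controls. SC controls had 20.7, 17.0 and 19.3 CPM and SC CBP-ifKOs had 23.8, 25.8 and 21.3 CPM. EE controls had 18.8, 16.7 and 18.5 CPM, below the 24.1, 23.2 and 22.9 CPM of the EE CBP-ifKOs. The log2 fold change was 0.31 (SE 0.096, adjusted p = 0.0864, edgeR) in SC, 0.39 (SE 0.080, adjusted p = 0.0206) in EE and 0.35 (SE 0.063, adjusted p = 0.0014) averaged. The study lists Pcdhb9 among upregulated genes that it chose in several experiments, 1 of which used the SC mice analyzed here, so that its direction in SC and averaged is not independent evidence. The EE mice were not used for that choice.

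Pcdhb10 (37411664 to 37414514), the gene next to Pcdhb9, was expressed at a lower level. It had 3.75, 3.48 and 4.68 CPM in SC controls and 4.96, 5.05 and 4.71 CPM in SC CBP-ifKOs, which barely separated the groups. In EE it had 4.45, 4.67 and 4.54 CPM in controls and 5.99, 5.98 and 5.40 CPM in CBP-ifKOs. Averaged over housing the log2 fold change was 0.33 (SE 0.093, adjusted p = 0.0244, edgeR). It lost the call without both control mice numbered 2, with a log2 fold change of 0.30 and an adjusted p of 0.0570. The gene between Pcdhb7 and Pcdhb9, Pcdhb8, had values of the other sign that did not pass the test, with log2 fold changes of -0.17 (SE 0.19, adjusted p = 0.671) in SC and -0.37 (SE 0.20, adjusted p = 0.344) in EE.

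**Figure D3:**
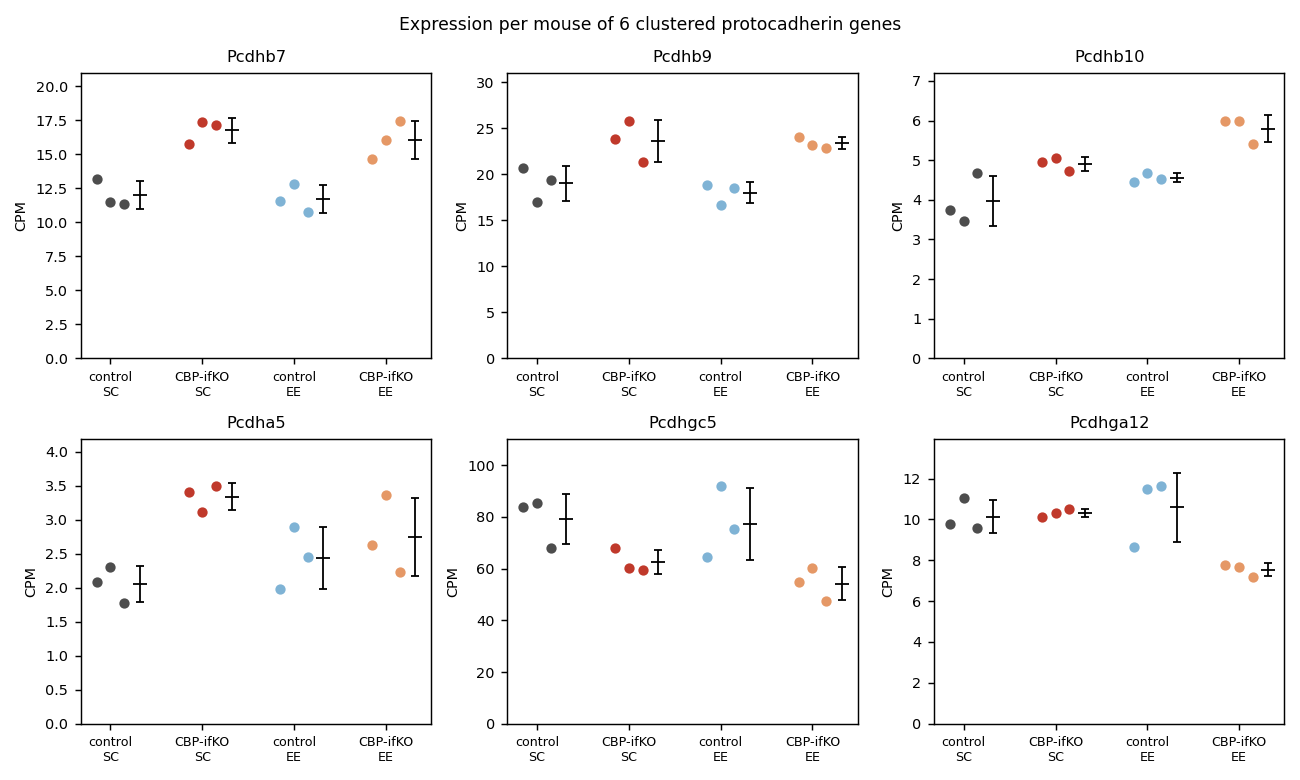
CPM per mouse (points) with the mean and SD of 3 mice (bars) for Pcdhb7, Pcdhb9, Pcdhb10, Pcdha5, Pcdhgc5 and Pcdhga12 in the 4 groups, with each axis starting at 0. All CBP-ifKO points of Pcdhb7 lie above all control points, whereas the Pcdhgc5 points of SC controls reach down to 68.0 CPM and touch the SC CBP-ifKOs.

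Pcdhgc5 (37819513 to 37841873) was the only member called lower in these 3 comparisons. SC controls had 84.0, 85.6 and 68.0 CPM, and SC CBP-ifKOs had 68.0, 60.4 and 59.6 CPM. EE controls had 64.6, 92.0 and 75.3 CPM, and EE CBP-ifKOs had 54.7, 60.4 and 47.6 CPM. The groups met at 68.0 CPM in SC and were separate in EE. The log2 fold change was -0.34 (SE 0.087, adjusted p = 0.0443, edgeR) in SC, -0.50 (SE 0.12, adjusted p = 0.0364) in EE and -0.42 (SE 0.084, adjusted p = 0.0026) averaged. Control mouse 2 had the highest level in both housings. Without it, the log2 fold change was -0.28 (adjusted p = 0.0653) in SC and -0.36 (adjusted p = 0.0641) in EE, and without both such mice the averaged value was -0.32 (adjusted p = 0.0076). The averaged call was kept without these mice, whereas the calls within a housing were not. The call in SC was also lost without control mouse 1 (-0.29, adjusted p = 0.116), without any 1 of the SC CBP-ifKOs (adjusted p = 0.0612 to 0.164) and with the SC genotypes compared in the fit of all mice (-0.34, adjusted p = 0.116). Of 7 excitatory neuron markers 3 were also lower averaged over housing, against 10.3% of all genes. The list was mixed, with 3 positive values and a median of -0.036. The part of these markers in the Pcdhgc5 difference was not tested.

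The other gamma C genes were not called in these comparisons as given above. In 3 of 20 alternatives Pcdhgc4 was called lower averaged over housing (smallest adjusted p = 0.0388, edgeR). Pcdhgc4 had 12.2, 11.4 and 9.47 CPM in SC controls, 9.80, 9.41 and 10.01 in SC CBP-ifKOs, 8.74, 10.8 and 8.92 in EE controls and 7.60, 8.59 and 6.76 in EE CBP-ifKOs. Its log2 fold change was -0.18 (SE 0.11, adjusted p = 0.405) in SC, -0.30 (SE 0.13, adjusted p = 0.236) in EE and -0.25 (SE 0.087, adjusted p = 0.0671) averaged. Pcdhgc3 had similar means in SC controls, 22.8 ± 2.98 CPM, and SC CBP-ifKOs, 22.8 ± 0.534 CPM, and its averaged log2 fold change was -0.041 (SE 0.072, adjusted p = 0.755). The alpha C genes were not called averaged either, with 0.025 (SE 0.17, adjusted p = 0.944) for Pcdhac1 and -0.055 (SE 0.11, adjusted p = 0.782) for Pcdhac2, and without both control mice numbered 2 these values were 0.22 (adjusted p = 0.447) and 0.13 (adjusted p = 0.302). Pcdhac2 had 22.3, 31.7 and 22.1 CPM in SC controls and 26.7, 28.6 and 26.6 in SC CBP-ifKOs. Without SC control mouse 2, the highest value, its log2 fold change in SC moved from 0.10 (adjusted p = 0.684) to 0.29 (adjusted p = 0.0252).

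Pcdha5 (36960440 to 37187657) was the only alpha gene called in these comparisons as given above. Other alpha genes passed in some fits that left out mice, given below. It had 2.08, 2.30 and 1.78 CPM in SC controls and 3.41, 3.12 and 3.50 CPM in SC CBP-ifKOs, without overlap. In EE the groups overlapped, with 1.98, 2.90 and 2.45 CPM in controls and 2.64, 3.36 and 2.23 CPM in CBP-ifKOs. The log2 fold change was 0.70 (SE 0.17, adjusted p = 0.0383, edgeR) in SC, 0.18 (SE 0.22, adjusted p = 0.701) in EE and 0.44 (SE 0.14, adjusted p = 0.0397) averaged. DESeq2 gave an adjusted p of 0.0572 and the replicate number as a block 0.0582 for the difference in SC. The difference between the housings, the interaction, was -0.53 (SE 0.28) with an unadjusted p of 0.0717. Across the 10 tested alpha variable genes the median log2 fold change was 0.24 in SC with 8 positive values and 0.012 in EE with 5 positive values. Without control mouse 2 of the housing, it was 0.43 with 10 positive values in SC and -0.072 with 5 in EE. Pcdha12, the most abundant of them, had 0.062 (SE 0.22, adjusted p = 0.907) in SC and -0.35 (SE 0.20, adjusted p = 0.362) in EE.

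No gamma A or gamma B gene passed the threshold in these 3 genotype comparisons as given above, but some passed in other edgeR fits. With the genotypes of EE compared in the fit of all mice, Pcdhga12 passed (adjusted p = 0.0175), and without the filter Pcdhga2 and Pcdhga3 passed in SC and Pcdhgb2, Pcdhga7 and Pcdhga12 in EE. In EE, 9 of 11 tested gamma A genes and 5 of 7 gamma B genes had negative values, with medians of -0.19 and -0.077, whereas in SC the negative values were 3 of 11 and 3 of 7. These values moved with EE control mouse 2, without which 8 of 11 gamma A genes and 3 of 7 gamma B genes were negative in EE, with medians of -0.11 and 0.10. Pcdhga12, which the study lists among EE-regulated genes chosen on these samples, had 8.63, 11.5 and 11.6 CPM in EE controls and 7.75, 7.69 and 7.17 CPM in EE CBP-ifKOs, so the groups did not overlap. Its log2 fold change in EE was -0.48 (SE 0.13, adjusted p = 0.0686, edgeR), and DESeq2 gave -0.49 with an adjusted p of 0.0256. In SC its log2 fold change was 0.023 (SE 0.10, adjusted p = 0.926). Without EE control mouse 1 the value in EE was -0.61 with an adjusted p of 0.0213. Pcdhgb2 had 5.88, 7.91 and 8.05 CPM in EE controls and 3.93, 5.07 and 5.40 CPM in EE CBP-ifKOs. Its log2 fold change in EE was -0.59 (SE 0.17, adjusted p = 0.0763, edgeR), DESeq2 gave an adjusted p of 0.0270, the replicate number as a block gave 0.0206, and without EE control mouse 1 the adjusted p was 0.0328. Pcdhga2, which is in the same list, had 0.40 (SE 0.12, adjusted p = 0.0868, or 0.0354 with the replicate number as a block) in SC and -0.19 (SE 0.11, adjusted p = 0.392) in EE. Pcdhga11, the most abundant gamma A gene, had 0.18 (SE 0.17, adjusted p = 0.604) and -0.15 (SE 0.12, adjusted p = 0.548), and Pcdhgb6 had 0.068 (SE 0.14, adjusted p = 0.835) and -0.22 (SE 0.15, adjusted p = 0.474). Without EE control mouse 2, the values in EE were -0.42 for Pcdhga12, -0.53 for Pcdhgb2, -0.11 for Pcdhga2, -0.13 for Pcdhga11 and -0.055 for Pcdhgb6, and none of them passed (adjusted p = 0.132 to 0.865).

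The choice of mice affected how many genes were called. Without SC control mouse 2, 6 members passed in SC, all higher in CBP-ifKOs, which were Pcdhb7, Pcdha3, Pcdha5, Pcdhac2, Pcdhga2 and Pcdhga3. They were 11.1% of the members tested, against 10.6% of all genes called in the same fit, 4.28% higher and 6.36% lower. In EE, 4 passed without EE control mouse 1 (3.83% of all genes) and 2 without EE control mouse 2 (5.54% of all genes). Averaged over housing, 10 passed without both control mice numbered 2, with 9 higher and only Pcdhgc5 lower. This was 18.2% of the members tested, against 21.5% of all genes, 10.1% higher and 11.5% lower. The genes added there were Pcdha2, Pcdha3, the first model of Pcdha11, Pcdhb14, Pcdhb16 and Pcdhga3. Pcdhb7, Pcdhb9 and Pcdhgc5 kept the averaged call in each of the 12 fits that left out 1 mouse, Pcdhb10 kept it in 5 and Pcdha5 in 3. Within SC, Pcdhb7 kept its call without control mouse 1 or 2 or CBP-ifKO mouse 1, Pcdha5 only without control mouse 2 and Pcdhgc5 only without control mouse 3. Within EE, Pcdhb7 kept its call without control mouse 2 or CBP-ifKO mouse 1, Pcdhb9 without control mouse 1 or 2, and Pcdhgc5 only without control mouse 1.

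Summed over a subcluster, the beta genes were higher in CBP-ifKOs without overlap in SC, and the gamma C genes were lower without overlap in EE. The beta genes summed to 170, 165 and 172 CPM in SC controls and to 193, 190 and 205 CPM in SC CBP-ifKOs, which did not overlap. In EE they summed to 166, 185 and 167 CPM in controls and to 186, 179 and 204 CPM in CBP-ifKOs, which overlapped. The ratio of group means was 1.16 in SC and 1.10 in EE. The gamma C genes summed to 120, 122 and 96.9 CPM in SC controls and to 101, 92.6 and 91.8 CPM in SC CBP-ifKOs. In EE they summed to 92.0, 126 and 103 CPM in controls and to 81.3, 89.6 and 72.5 CPM in CBP-ifKOs, without overlap. The ratio of group means was 0.842 in SC and 0.758 in EE. The gamma A genes summed to between 104 and 131 CPM in EE controls and between 94.5 and 103.8 CPM in EE CBP-ifKOs, at a ratio of 0.879, and overlapped in SC. Without EE control mouse 2, the log2 ratio of the sums in EE moved from -0.19 to -0.072 for gamma A and from -0.40 to -0.27 for gamma C, and that of the beta genes from 0.14 to 0.19. Without EE CBP-ifKO mouse 3 the beta value was 0.083. In SC, without control mouse 2, the log2 ratio was 0.20 for the beta genes and -0.19 for gamma C, against 0.21 and -0.25 with it. The alpha and gamma B sums overlapped between genotypes in both housings.

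All members together summed to 472 ± 30.1 CPM in SC controls and 495 ± 9.74 CPM in SC CBP-ifKOs, and to 480 ± 59.3 and 449 ± 9.90 CPM in EE (SD, n = 3 each), with overlap in both housings. Within that total, the share of gamma C genes was 23.9% ± 2.01 in SC controls and 19.2% ± 0.780 in SC CBP-ifKOs, and 22.3% ± 0.947 and 18.04% ± 1.67 in EE. The share of beta genes was 35.9% ± 2.97 and 39.5% ± 1.53 in SC, and 36.1% ± 2.22 and 42.2% ± 3.25 in EE. The beta share of the CBP-ifKOs exceeded that of the controls without overlap in EE only. The gamma C share was lower in every CBP-ifKO than in every control, between 16.2% and 20.1% against 21.2% to 25.8%. No test was made on sums or shares.

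**Figure D4:**
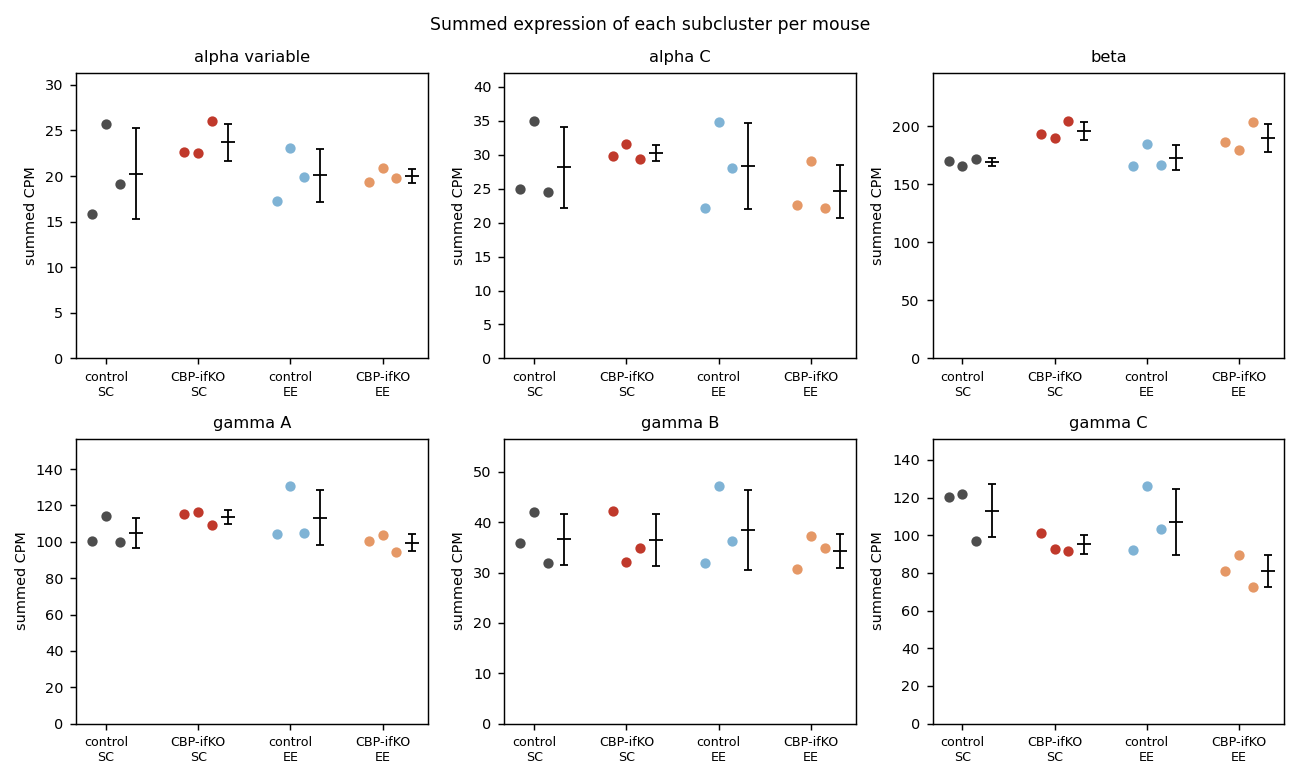
Summed CPM of each subcluster per mouse (points) with the mean and SD of 3 mice (bars) in the 4 groups, with each axis starting at 0. The beta sums of SC CBP-ifKOs (190 to 205 CPM) lie above those of SC controls (165 to 172 CPM), and control mouse 2 is the middle point of each control group and the highest for gamma C, at 122 and 126 CPM.

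The second question was whether EE changes the expression of these genes, and whether it does so equally in both genotypes. No clustered protocadherin passed the threshold for EE in controls (edgeR), where 0% of all genes were called, or for EE in CBP-ifKOs, where 0.011% of all genes were called, 0.00548% higher and 0.00548% lower. DESeq2 called 0 members in either comparison as well. At an unadjusted p of 0.05, 5 of 54 members passed in controls, 4 higher and 1 lower, against 4.21% of all genes, with 2.08% higher and 2.13% lower. The groups did not overlap for 3 members higher and 1 lower, against 4.2% and 4.91% of all genes. In CBP-ifKOs 6 of 54 passed, all lower, against 8.59% of all genes, with 3.97% higher and 4.62% lower.

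In controls, the smallest p belonged to Pcdhb6, with a log2 fold change of 0.51 (SE 0.14, adjusted p = 0.805, edgeR). It had 3.86, 3.70 and 3.92 CPM in SC and 4.63, 6.18 and 5.60 CPM in EE, without overlap. Pcdhga2 had 8.57, 11.2 and 10.8 CPM in SC controls and 13.4, 14.9 and 11.7 CPM in EE controls, with a log2 fold change of 0.39 (SE 0.13, adjusted p = 0.999). Pcdhga1 had the largest negative value, -0.61 (SE 0.21, adjusted p = 0.999), with 7.46, 7.59 and 9.84 CPM in SC and 4.81, 7.53 and 3.95 CPM in EE, which overlapped. The overlap rested on EE control mouse 2, at 7.53 CPM, and the value was -0.92 (adjusted p = 0.641) without it and -0.98 (adjusted p = 0.608) without both control mice numbered 2. Without both mice Pcdhb6 had 0.39 and Pcdhga2 had 0.37. The median over the 54 members was 0.0099, with 29 positive values, against 0.00096 over all genes. It was 0.099 without SC control mouse 2 and -0.042 without EE control mouse 2.

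In CBP-ifKOs, 41 of 54 members had negative values with a median of -0.10, against a median of -0.0025 and 49.3% positive values over all genes. The 3 gamma C genes and both alpha C genes were among them, with values from -0.35 to -0.19. Pcdhga12 had the smallest p, with 10.1, 10.3 and 10.5 CPM in SC CBP-ifKOs and 7.75, 7.69 and 7.17 CPM in EE CBP-ifKOs. Its log2 fold change was -0.45 (SE 0.11, adjusted p = 0.330, edgeR). Pcdhgc4 had -0.35 (SE 0.12, adjusted p = 0.469), Pcdhgc3 had -0.24 (SE 0.10, adjusted p = 0.518), and Pcdha12 had -0.61 (SE 0.22, adjusted p = 0.482), each without overlap between SC and EE. In all, 9 members did not overlap in this direction and 2 in the other, where 8.17% and 7.69% of all genes showed such separations. The summed level of all members was between 485 and 504 CPM in SC CBP-ifKOs and between 441 and 460 CPM in EE CBP-ifKOs, without overlap, at a ratio of group means of 0.908. The beta genes overlapped, at a ratio of 0.969.

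**Figure D5:**
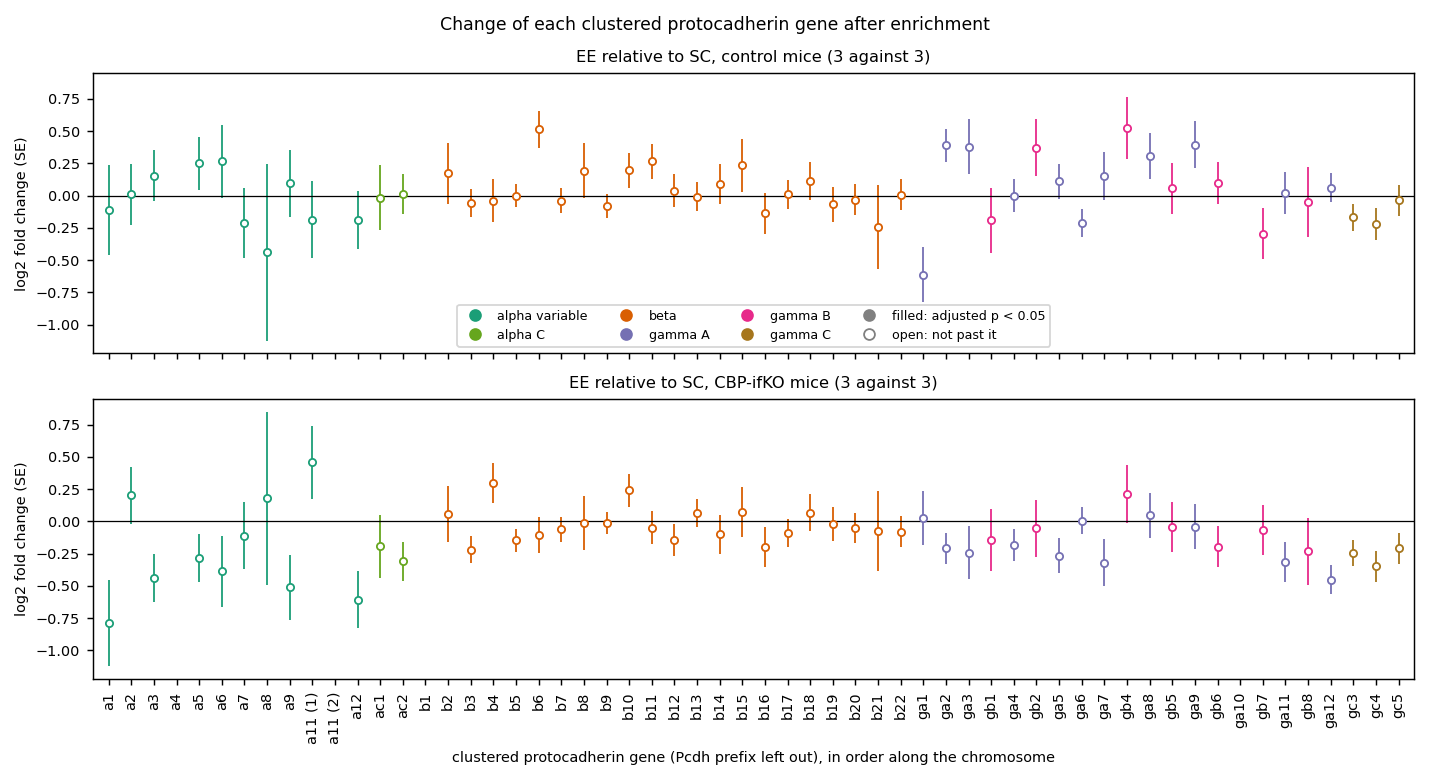
Log2 fold change of EE relative to SC (vertical axis, bars show the SE) for the 54 tested genes in their order along the chromosome, in controls (top) and CBP-ifKOs (bottom), colored by subcluster. No point is filled, since none had an adjusted p below 0.05, and 41 of 54 values lie below 0 in CBP-ifKOs.

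The difference between both EE effects was tested as an interaction, which called 0% of all genes and no member (smallest adjusted p of a member 0.9998, edgeR). DESeq2 called 0 members too. At an unadjusted p of 0.05, 5 of 54 members passed, 1 higher and 4 lower, against 3.15% of all genes, with 1.75% higher and 1.4% lower. Pcdhga2 had an interaction of -0.60 (SE 0.18, unadjusted p = 0.0038), with EE effects of 0.39 in controls and -0.21 in CBP-ifKOs. Pcdhga12 had -0.51 (SE 0.16, unadjusted p = 0.0063) and Pcdhb6 had -0.62 (SE 0.20, unadjusted p = 0.0070). Pcdhga1 had 0.64 (SE 0.30, unadjusted p = 0.0475), which was 1.01 (SE 0.28, unadjusted p = 0.0025) without both control mice numbered 2. None of these had an adjusted p under 0.05 with or without them. The environment and interaction terms tested together called 0.0712% of all genes and no member, the smallest adjusted p of a member being 0.455 (edgeR). Pcdhga12 and Pcdhga2, which the study lists among EE-regulated genes chosen on these samples, were thus not called. DESeq2 called 0.627% of all genes with an adjusted p and 0 members. The study used DESeq2's likelihood ratio test with a changed outlier cutoff and a fold threshold, and these 2 settings were not used here. At an unadjusted p of 0.05, 7 of 54 members passed this joint test, against 6.87% of all genes.

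Genes that control or use the clusters were taken from lists chosen by function. The counts below are of calls averaged over housing, where 6.64% of all genes were higher and 10.3% lower. Of 11 tested genes for CTCF and cohesin, which hold the promoters at their enhancers, none was called averaged over housing by edgeR, with 0 past an unadjusted p of 0.05 and values between -0.056 and 0.12. Of 13 genes for DNA methylation and silencing, Rest, a repressor of neuronal genes, was called. It had 6.20, 7.78 and 8.20 CPM in SC controls and 10.2, 12.8 and 11.8 CPM in SC CBP-ifKOs, with an averaged log2 fold change of 0.64 (SE 0.10, adjusted p = 6.3e-04). Of 24 genes for processing of protocadherins and for their downstream kinases and actin regulators, 1 was higher and 7 were lower. The smallest p among them belonged to Ptk2b, the kinase Pyk2, at -0.36 (SE 0.042, adjusted p = 3.6e-05). Abi1 and Cyfip2, subunits of the WAVE complex that drives actin branching, had -0.28 and -0.24, and Ptk2, the focal adhesion kinase, had -0.18.

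Other cadherins and genes beside the clusters were compared in the same way, against the same 6.64% higher and 10.3% lower of all genes. Of 12 nonclustered protocadherins 4 were lower and none was higher, with Pcdh8, a protein that is induced by activity and endocytoses cadherin at synapses, at -0.40 (SE 0.047, adjusted p = 3.4e-05). Pcdh20 had -0.36, Pcdh15 had -0.38 and Pcdh17 had -0.20. Of 15 cadherins outside the protocadherins 5 were lower and none higher, including Cdh4 at -0.53 (SE 0.071, adjusted p = 1.1e-04), Cdh13 at -0.28, Cdh9 at -0.36 and Cdh10 at -0.18. Of 17 tested genes that flank the clusters 4 were higher and 1 was lower, with Fchsd1 at 0.45 (SE 0.075, adjusted p = 7.2e-04), Hars2 at 0.20, Hdac3 at 0.17 and Diaph1 at -0.15. The median over these 17 genes was 0.10 with 13 positive values, against a median of 0.022 over the 54 clustered protocadherins and 0.0029 over all genes. Without both control mice numbered 2 the median was 0.13 over 55 clustered protocadherins. That value is not comparable with the 0.10 and 0.0029, which come from all mice.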

How the data were processed

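RNA-seq counts from 24 GEO samples, 2 runs for each of 12 mice, were analyzed with the mouse as replicate. The authors trimmed 50-base single-end reads (Trim Galore 0.6.4, FastQC 0.11.8), aligned them with STAR 2.6.1 to mm10, kept a mapping quality above 10 and counted exonic reads with Rsubread. The authors deposited unnormalized counts for each gene, in which the runs of a mouse are merged. The strand setting of the counting is not given in the sources used here. Exonic lengths in the table equal those of GENCODE for all 58 members, and that annotation gave positions and shared bases.

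Counts were tested with edgeR 4.0.16 in R 4.3.3 (expression filter, TMM, quasi-likelihood F test, Benjamini-Hochberg adjustment over all genes tested, threshold 0.05). Genotypes were compared in the 6 mice of a housing, and averaged genotype, EE and interaction in all 12. Replicate numbers name separate mice, and p-values measure the spread between them. A floor of 3 counts corresponded to 0.107 to 0.112 CPM in controls and 0.0801 to 0.105 CPM in CBP-ifKOs, for counting error only. These values rest on the deposited totals. Since all counts of the CBP-ifKO libraries were even, their lower values do not show a smaller counting error. With divided counts the CBP-ifKO totals lay below all control totals, so that the same floor would be higher in CBP-ifKOs than in controls.

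Alternatives were DESeq2 1.42.0, its size factors, 2 other filters, counts of the CBP-ifKOs divided in 2 and thinned, the replicate number as a block, another set of mice in the fit, and leaving out each mouse. Leaving out both control mice numbered 2 was added after the data were seen. The scripts were tested on simulated data. Named members were the most abundant gene per countable kb of each subcluster, the C-type genes, Pcdhb9, Pcdhga2 and Pcdhga12, those past the threshold in any comparison, and up to 3 with the smallest p per direction, and from other lists at most 4 called genes. Pcdhb5, Pcdhb8, Pcdhb17, Pcdha3, Pcdha9, the genes called only in alternatives and the cell type markers are named outside this rule. Pcdhb4, Pcdhga6 and Pcdhga9 fall under it but are not described above, and none was called in the comparisons as given. Pcdhb4 was called higher averaged over housing in 2 of 20 alternatives (smallest adjusted p = 0.0443, edgeR). Members and lists were chosen with earlier results of these data known.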

Additional observations from a re-analysis of the deposited data

How the results depend on the processing

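All 36 differences of named members with an unadjusted p below 0.05 kept their direction in every alternative, whereas 39 of the other 90 changed sign in at least 1. Both sets were split by this p in the same mice, so that the contrast between them largely follows from the split. The replicate number as a block called 3 members in SC, 4 in EE and 5 averaged (5.94%, 6.18% and 18.5% of all genes), and 0 in the other comparisons, with Pcdhga2 gaining the call in SC (adjusted p = 0.0354), Pcdha5 losing it (adjusted p = 0.0582) and Pcdhgb2 gaining it in EE (adjusted p = 0.0206). Deviations from the group mean were correlated between mice. For controls in SC and EE, same-numbered mice had between 0.0335 and 0.305, and mice with different numbers between -0.251 and 0.0724. For both genotypes in EE these ranges were 0.0341 to 0.124 and -0.125 to 0.0063, so that every same-numbered value lay above every other. In the other pairs of groups they were -0.0675 to 0.102 and -0.145 to 0.144. Not every same-numbered pair exceeded 0.1, and the numbers were not taken to pair the mice. Members called were 3 in SC, 3 in EE and 5 averaged as reported. Without a filter on low counts they were 6 in SC (5 higher, 1 lower, against 4.67% of all genes), 6 in EE (2 higher, 4 lower, against 5.14%), 6 averaged (2 higher, 4 lower, against 9.59%, with Pcdha5 and Pcdhb10 lost and Pcdhgb2, Pcdhga7 and Pcdhgc4 gained), 1 for EE in controls (Pcdhga1), 1 for the interaction (Pcdhga3) and 2 for environment and interaction together (0.413%, 0.314% and 1.17% of all genes). DESeq2 called 3 in SC, with Pcdhga3 gained (adjusted p = 0.0382) and Pcdha5 lost, 5 in EE (2 higher, 3 lower) and 5 averaged, against 8.43%, 8.47% and 20% of all genes with an adjusted p. Halved and thinned counts called 2 in SC, 1 in EE and 7 averaged, with Pcdhb12 higher (adjusted p = 0.0371) and Pcdhga12 lower (adjusted p = 0.0280) gained, against 5.33%, 4.8% and 16.7% of all genes. The averaged count was 10 without both control mice numbered 2. The cause was not tested. Leaving out 1 mouse gave 0 to 6 members in SC, 0 to 4 in EE, 3 to 7 averaged and 0 for EE in controls, EE in CBP-ifKOs, the interaction and the joint test. The count fell to 0 in SC without CBP-ifKO mouse 2 or 3, and in EE without control mouse 3 or CBP-ifKO mouse 2 or 3. Averaged, it was 3 without SC control mouse 1, SC CBP-ifKO mouse 2 or EE control mouse 3. Over all genes, calls ranged from 399 to 1908 in SC and from 285 to 1016 in EE when 1 mouse was left out, against 968 and 805. Log2 ratios of subcluster sums depended on single mice. Without EE control mouse 2 the ratio in EE moved from -0.19 to -0.072 for gamma A, from -0.17 to 0.0075 for gamma B and from -0.095 to 0.0094 for all members, and in SC the alpha variable ratio moved from 0.23 to 0.081 without control mouse 1 and to 0.44 without control mouse 2. Without control mouse 2 the alpha C ratio moved from 0.11 to 0.29 in SC and from -0.20 to -0.028 in EE. Low counts limit the alpha variable genes, with 16 to 202 counts per library apart from Pcdha4, Pcdha8 and the second model of Pcdha11. They also limit members of other subclusters, such as Pcdhb21 with 28 to 82 and Pcdhgb8 with 31 to 64 counts.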
